A study of Mus musculus with 33 samples.

Results

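Donor monocytes that were back in the bone marrow (BM) 1 day after an intravenous transfer were compared with BM monocytes that had not been transferred. The 5 libraries were chosen by their labels, 3 from recovered cells and 2 from cells before transfer, of 33 libraries in the series. All 57 panel genes with a value in every library were described, of 67 genes on the panel. The recovered cells, called BM monocytes here, were wild-type cells injected into CCR2-/- recipients without gut surgery, on a C57BL/6 background, and they were sorted as 100 cells per library. The cells before transfer, called primary monocytes here, came from BM of wild-type, non-manipulated donors, and the labels give no cell number for them. Per the methods of the study, BM monocytes were enriched with magnetic beads that deplete other cells, and this was done before transfer as well. Recovered cells were in addition sorted by flow cytometry through the congenic CD45 marker of the donor. BM was flushed from femur and tibia and erythrocytes were lysed in either case, with no collagenase. Injection, 1 day in a recipient that lacks Ccr2 in its own cells, staining and cell sorting are shared by all recovered cells and cannot be told apart. The labels do not give the age of the mice or say which libraries came from which animal.

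Ly6C-high monocytes are made in the BM, leave it through the chemokine receptor CCR2 and circulate before they enter tissues. They can also return to the marrow, where part of them turn into Ly6C-low patrolling monocytes, which carry more CX3CR1 and CD11c and less CCR2. In tissues they can acquire MHC class II, CD64 and other features of macrophages, and interferons induce a set of genes in them that includes the adhesion receptor Siglec1 and the chemokines Cxcl9, Cxcl10 and Cxcl11.

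Transcripts were counted by nCounter, which reads each transcript as a coloured barcode, after reverse transcription and 16 cycles of amplification with gene-specific primers. Levels are counts divided by a factor made from the house-keeping genes Actb, Gapdh and Rpl19, called normalised counts, and differences are on the log2 scale of the normalised count plus 1, BM minus primary monocytes. Library totals lay between 1144085 and 1494279 counts in BM monocytes, against 1370787 and 1626398 in primary monocytes. The counts follow amplification and are not independent molecules, so the spread between libraries rather than the depth limits the precision. The libraries within each group differed among themselves. Primary library 2 was lower than primary library 1 in 49 of the 57 genes, and the level of 12 genes differed by 2 or more log2 units between both. In BM monocytes 20 genes spanned 2 or more log2 units, and library 2 held the highest level of 29 genes. The house-keeping factor was 1.17 and 1.85 in primary libraries 1 and 2, and 1.004, 0.584 and 0.991 in BM libraries 1, 2 and 3. A higher factor lowers every level of its library, so these orders depend on the scaling too. The median difference over all 57 genes was 0.37, so that 41 genes had a positive and 16 a negative difference. This centre depended on the scaling. Rpl19 stood at 1920, 1585 and 6591 normalised counts in BM monocytes, against 3272 and 10318 in primary monocytes, and without it the median difference was -0.18. With TMM factors it was -0.04 and with total counts -0.26, whereas it was 0.71 without Actb and 0.57 without Gapdh. Differences are therefore read against the median of all genes, and small ones have no settled sign.

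The monocyte identity of both groups was checked first. Ccr2, Csf1r, Cd14, Chil3 and Fcgr1 (the CD64 gene) were above the background of the negative control probes in all 5 libraries. Ccr2 had 144750, 113660 and 97781 normalised counts in BM monocytes, against 141600 and 55410 in primary monocytes. Whether the probe lies in the part of Ccr2 that the recipients lack is not given, so these values do not check the origin of the cells. Of the markers fixed for other cell types, none for neutrophils, lymphocytes and NK cells, progenitors and erythroid cells, or marrow stroma was on the panel with a value. Of 9 dendritic cell markers 2 were measured, Ccr7 and Ccl22, and the sum of both was 1459, 1027 and 1921 normalised counts in BM monocytes, against 2500 and 2020 in primary monocytes. Itgax, which dendritic cells also carry, is not on that list and was higher in BM monocytes, as described below. Flt3 and Zbtb46, further genes of dendritic cells, were on the panel but had no value in any library. The part of other cells in the results was not tested.

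Of the 57 genes, 1 passed the test, which is 1.75% (limma, Benjamini-Hochberg adjustment), and it was higher in BM monocytes. A further 7 genes had an unadjusted p under 0.05 only, so that 8 genes (14%), all higher in BM monocytes, lay below that value. No gene was called lower. These p-values test against 0 and not against the median of 0.37, so the shared direction depends on the scaling too. With TMM factors, with total counts and without Rpl19, 6 genes each had an unadjusted p under 0.05 (limma). With edgeR 1 gene passed and 9 (15.8%) had an unadjusted p under 0.05, and with DESeq2 4 genes (7.02%) passed. For 9 genes (15.8%) all BM libraries lay above both primary libraries, and for 3 genes (5.26%) they lay below. With groups of 3 and 2 libraries such a separation often arises without a difference. It refers to normalised counts, depends on the scaling and is a description, not a test.

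**Figure D1:**
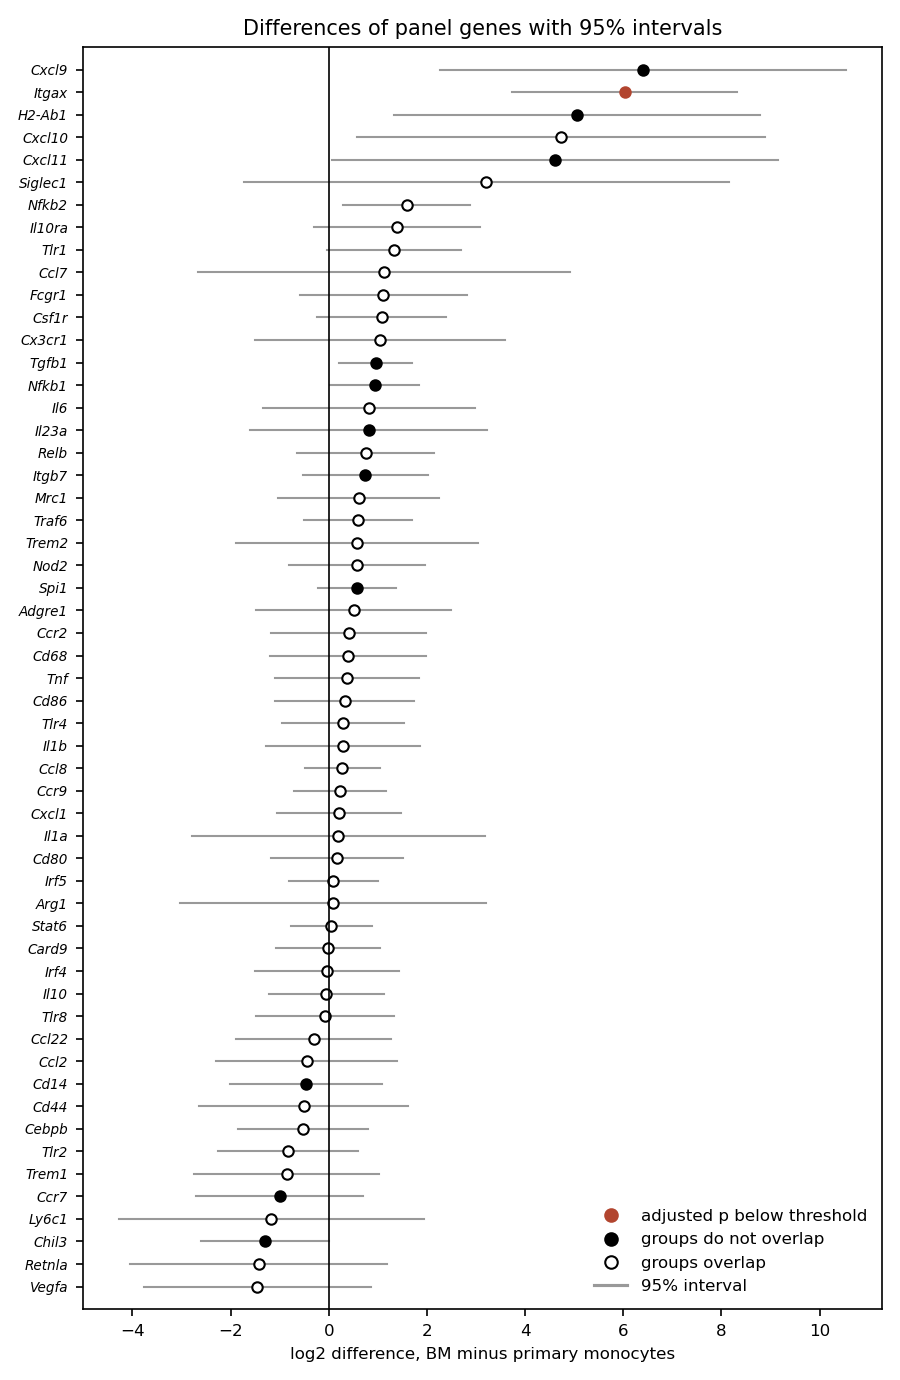
Log2 difference (BM minus primary monocytes, n = 3 and 2) of 55 of the 57 genes, in order of size, with its 95% interval from the limma fit. Itgax, at 6.03, was the gene past the adjusted threshold, filled black points mark the other genes whose groups did not overlap, and most intervals included 0.

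Itgax encodes the integrin alpha chain CD11c, which pairs with CD18 and is carried by dendritic cells, many macrophages and Ly6C-low monocytes. Its probe addresses bases 328 to 427 of the transcript NM_021334.2. It had 5299, 1065 and 1301 normalised counts in BM monocytes, against 23.9 and 34.7 in primary monocytes. The lowest BM library was thus far above the highest primary library. The underlying counts were 5319, 622 and 1289 in BM monocytes, against 28 and 64 in primary monocytes, of which the 28 lay below the background of 54.0 counts and the 64 above that of 39.5. The difference was 6.03 ± 1.11 (SE, 95% interval 3.74 to 8.32, adjusted p = 0.00073 by limma, higher in 3 of 3 BM libraries), or 65.2-fold. With the primary libraries set to no less than their background it was 47.4-fold. Leaving out 1 library at a time gave differences between 5.30 and 6.46. In flow cytometry the study defines recovered donor monocytes, those from BM included, by CD11b, CD64 and low or intermediate CD11c. Where it counts them per organ, BM included, it uses CD64, CD11b and Ly6C. Whether the BM libraries were sorted through either gate is not given in the sources used here. Itgax, Fcgr1 and Ly6c1 may thus not be independent of the sort.

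H2-Ab1 encodes the beta chain of the MHC class II molecule I-A, which presents peptides to CD4+ T cells. Normalised counts were 125290, 250550 and 83433 in BM monocytes, against 9979 and 1713 in primary monocytes, again without overlap. The lowest BM library was above the higher primary library, although primary monocytes differed between themselves by more than 2 log2 units. The difference of 5.06 ± 1.81 (95% interval 1.33 to 8.79, adjusted p = 0.187 by limma) did not pass the test. It passed with DESeq2 (adjusted p = 0.00529) and in a fit of these 2 groups alone (0.0275). The costimulatory ligands that act with MHC class II had small differences, 0.16 ± 0.65 for Cd80 and 0.33 ± 0.69 for Cd86. In the list of antigen presentation genes 3 of 9 were measured, 0 passed, 3 were positive, and the median was 0.33 beside 0.37 for all genes.

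The other genes among the 6 largest differences were inducible by interferons, a grouping chosen after their values were seen, and Cxcl11 was on none of the lists. Cxcl9, Cxcl10 and Cxcl11 encode the ligands of CXCR3, the receptor that draws activated T cells and NK cells. Cxcl9 had 2283, 17511 and 1816 normalised counts in BM monocytes, against 48.7 and 48.2 in primary monocytes. All BM libraries stood apart from both primary libraries, which were nearly equal after scaling. The underlying primary counts were 57 and 89, above the backgrounds of 54.0 and 39.5, in library 1 only narrowly. The Cxcl9 difference was 6.40 ± 2.01 (95% interval 2.27 to 10.53, adjusted p = 0.109 by limma), which did not pass, although it was larger than that of Itgax. It passed with DESeq2 (adjusted p = 9.7e-05). Cxcl11 had 393, 21978 and 1403 normalised counts in BM monocytes, against 139 and 62.3 in primary monocytes. Its groups did not overlap either, yet the BM libraries spanned more than the distance between the nearest libraries of the groups. The difference was 4.61 ± 2.20 (adjusted p = 0.312 by limma), and it passed with DESeq2 (0.00461).

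Cxcl10 differed in kind, because one primary library lay among the BM libraries. It had 18895, 195510 and 44134 normalised counts in BM monocytes, against 24335 and 173 in primary monocytes. Its difference of 4.73 ± 2.02 (adjusted p = 0.259 by limma) became 8.30 without primary library 1 (adjusted p = 0.0219) and 1.17 without primary library 2. Siglec1 showed the same order of libraries, with 3399, 44447 and 8618 normalised counts in BM monocytes, against 7804 and 178 in primary monocytes. Siglec1 encodes CD169, a sialic acid receptor of macrophages. Its BM libraries lay on either side of primary library 1, and the difference was 3.21 ± 2.40 (adjusted p = 0.687 by limma). Without library 2 of both groups, an alternative chosen after the values were seen, the difference was -0.53 for Siglec1 and 0.25 for Cxcl10, but 2.41 for Cxcl11 and 5.36 for Cxcl9. The 4 genes thus fell into 2 kinds by their values. Cxcl9 and Cxcl11 were low in both primary libraries, whereas Cxcl10 and Siglec1 were low in 1 of 2.

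The primary monocytes of the 1 manipulated donor, which are no member of either group, lay between both libraries at 10.22 for Cxcl10 and 8.17 for Siglec1 in log2 normalised counts, and were at 5.67 for Cxcl9, close to both (5.64 and 5.62), and at 5.19 for Cxcl11, below both (7.13 and 5.98). In spleen of non-manipulated recipients library 2 was also the highest, with 17.42 for Cxcl10 beside 13.79 and 12.89. In BM of manipulated recipients Siglec1 was at 5.35, 13.61 and 8.69. What the libraries numbered 2 share is not given by the labels, and its part in these differences was not tested.

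**Figure D2:**
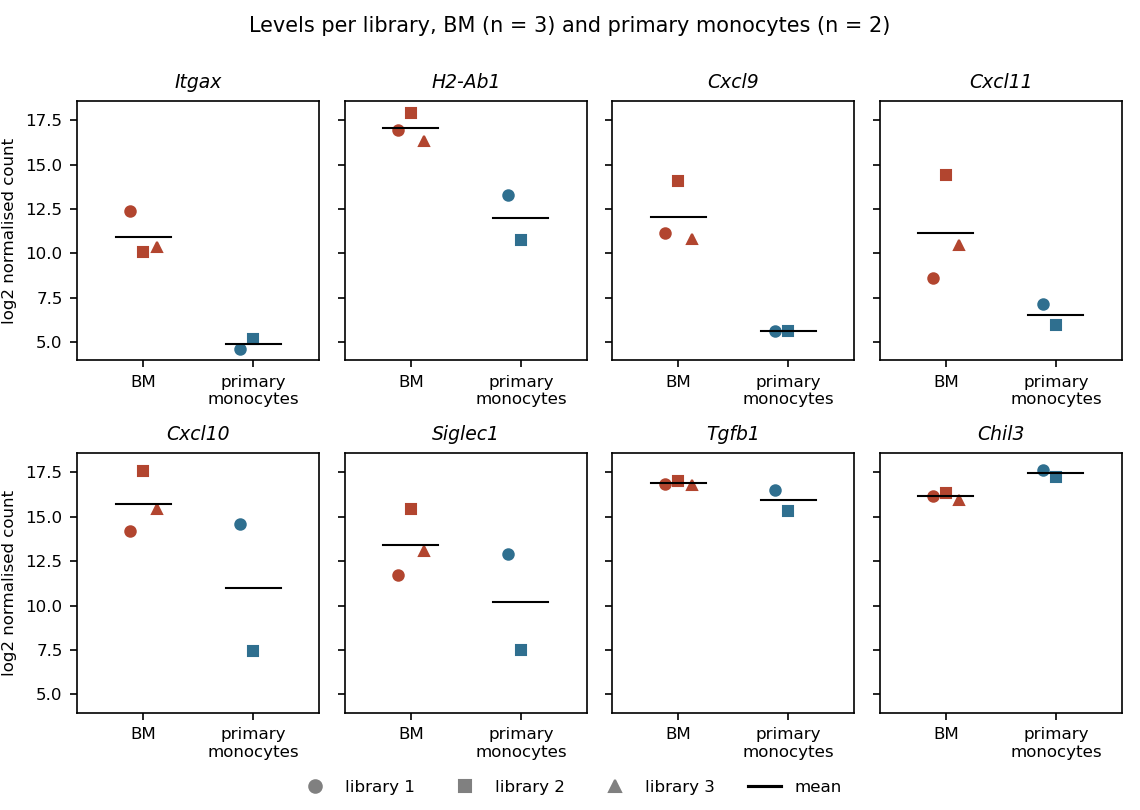
Log2 normalised count (vertical axis) of 8 genes in each BM library (left, n = 3) and each primary library (right, n = 2), with the group mean as a line and the library number as the symbol. Itgax, H2-Ab1, Cxcl9, Cxcl11 and Tgfb1 (only after scaling) were higher in all BM libraries. For Cxcl10 and Siglec1 only primary library 2 was low, and Chil3 was lower in all BM libraries.

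The promoters of Cxcl9 and Cxcl10, neighbours on chromosome 5, are shown because both genes rank among the largest differences while they part in primary library 1. The sequences are from RefSeq on GRCm38.p6, minus strand, 250 bases before to 50 after the start, at chr5:92328030-92328329 and chr5:92348840-92349139. Capitals mark matches to a core of interferon-stimulated response elements, which is GAAA, any 2 bases and again GAAA, and to a core of NF-kappaB sites, which is GGG, any 3 bases and TTCC. Both were searched on either strand, and the matches do not overlap.
Cxcl9: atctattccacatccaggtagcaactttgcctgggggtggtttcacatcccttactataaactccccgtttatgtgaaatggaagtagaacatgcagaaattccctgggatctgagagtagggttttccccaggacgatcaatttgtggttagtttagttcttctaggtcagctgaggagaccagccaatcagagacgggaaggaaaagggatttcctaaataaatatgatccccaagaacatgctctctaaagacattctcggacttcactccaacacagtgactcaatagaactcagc
Cxcl10: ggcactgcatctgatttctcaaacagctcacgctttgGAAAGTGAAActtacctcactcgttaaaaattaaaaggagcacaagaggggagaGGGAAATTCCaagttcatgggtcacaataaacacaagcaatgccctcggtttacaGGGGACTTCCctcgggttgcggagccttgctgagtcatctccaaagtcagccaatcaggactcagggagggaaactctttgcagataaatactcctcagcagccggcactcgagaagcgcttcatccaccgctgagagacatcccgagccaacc
The Cxcl10 window held 1 match to the interferon element core and 2 to the NF-kappaB core, and the Cxcl9 window held 0 of each. Of all 32851 promoters of this length, 3.44% held the first core and 5.56% held the second. A match describes the letters and is no evidence of binding. The lack of a match to these 2 cores does not show that such sites are absent. The part of these sequences in the levels was not tested.

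Macrophage markers were positive as a list, but without a call. Of 17 listed genes 8 were measured, and 8 of 8 had a positive difference with a median of 0.83, beside 0.37 for all genes. None of the 8 passed the test, and for each the groups overlapped. With TMM factors 7 of 8 were positive (median 0.42 beside -0.04 for all genes), with total counts 4 of 8 (0.20 beside -0.26) and without Rpl19 6 of 8 (0.28 beside -0.18). The list also rested on single libraries, with 4 of 8 positive without BM library 1 or without primary library 2. Csf1r, the receptor of the growth factor that keeps monocytes and macrophages alive, had 60907, 51584 and 20268 normalised counts in BM monocytes, against 44099 and 8077 in primary monocytes. BM library 3 lay between both primary libraries. The difference was 1.08 ± 0.64 (adjusted p = 0.497 by limma), with 2.31 and a call (adjusted p = 0.0404) without primary library 1 and -0.14 without primary library 2. Fcgr1, the high affinity IgG receptor, had 28624, 114960 and 41245 normalised counts in BM monocytes, against 36739 and 15483 in primary monocytes, a difference of 1.11 ± 0.82. Cx3cr1, the receptor for fractalkine and a marker of Ly6C-low monocytes and gut macrophages, had 8284, 499.9 and 928 normalised counts in BM monocytes, against 4675 and 122 in primary monocytes. The libraries of each group differed here by more than the groups did (1.05 ± 1.24), and the difference ranged between -1.58 and 3.67 as libraries were left out. Adgre1, which encodes F4/80, differed by 0.50, the lysosomal protein gene Cd68 by 0.38, the mannose receptor gene Mrc1 by 0.61 and the lipid receptor gene Trem2 by 0.58. Of 8 markers of Ly6C-low patrolling monocytes 2 were measured, Cx3cr1 and Itgax, of which Itgax passed.

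Markers of Ly6C-high monocytes had the lowest median of the lists with 5 or more measured genes, at -0.46, with 5 of 10 genes measured, 2 positive, 3 negative and 0 called. With TMM factors, total counts or without Rpl19 0 of 5 were positive. Chil3, the chitinase-like protein Ym1 and a marker of marrow monocytes, had 74950, 81768 and 63748 normalised counts in BM monocytes, against 206620 and 155570 in primary monocytes. The 3 BM libraries were close to each other and below both primary libraries. The difference of -1.29 ± 0.63 (2.45-fold lower, 95% interval -2.60 to 0.01, adjusted p = 0.312 by limma) did not pass, and it lay between -1.92 and -0.95 under all alternatives. Cd14, the co-receptor for lipopolysaccharide, had 9287, 10276 and 8559 normalised counts in BM monocytes, against 15933 and 10387 in primary monocytes. Its groups did not overlap, by the narrow gap between BM library 2 and primary library 2, and the difference was -0.46 ± 0.75. Ly6c1, from the Ly6C locus, had 3251, 7141 and 1359 normalised counts in BM monocytes, against 5292 and 9542 in primary monocytes, with overlap and a difference of -1.17 ± 1.51. The probe is named for Ly6c1, which is nearly identical in sequence to Ly6c2, so the values of both may mix. Ccr2 differed by 0.40 ± 0.77, with a 95% interval of -1.18 to 1.98.

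**Figure D3:**
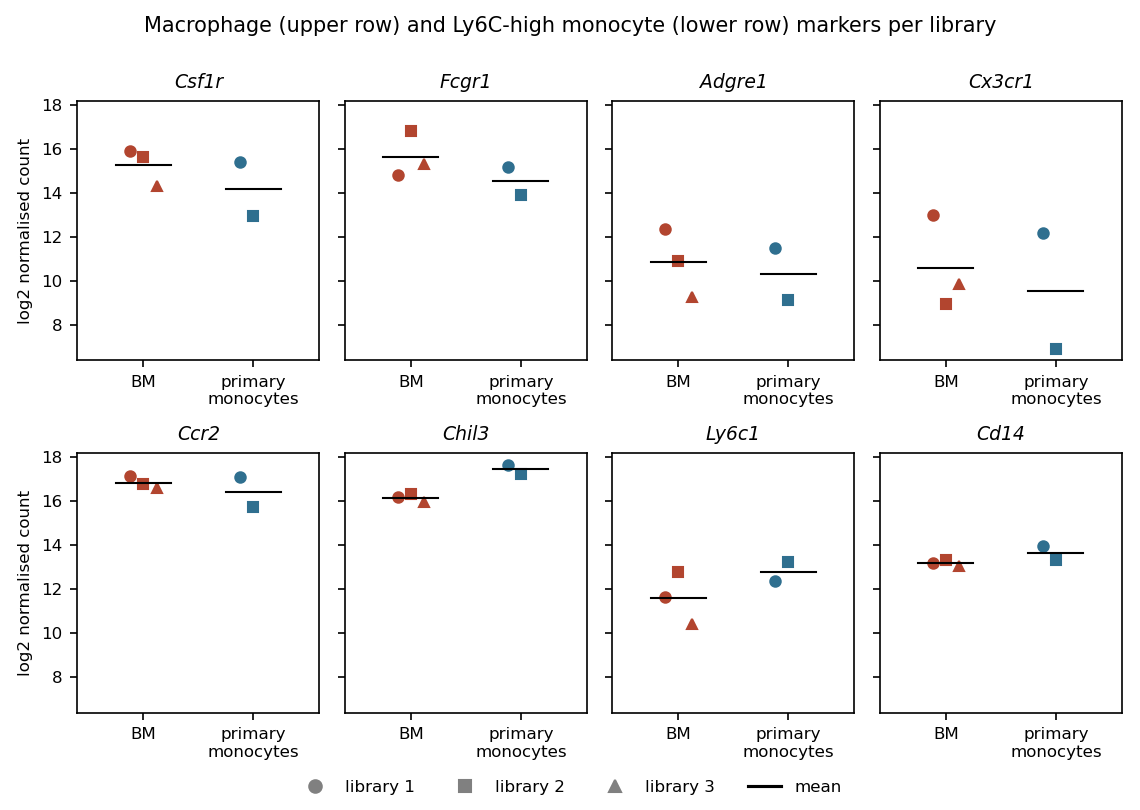
Log2 normalised count (vertical axis) of 4 macrophage markers (upper row) and 4 markers of Ly6C-high monocytes (lower row) in each BM library (left, n = 3) and each primary library (right, n = 2), with the mean as a line and the library number as the symbol. The groups overlapped for all but Chil3 and Cd14, and primary library 2 was below primary library 1 except for Ly6c1.

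Among chemokines no difference passed. The list held 7 measured genes of 18, Cxcl9 and Cxcl10 included, 5 positive and 2 negative, with a median of 0.28. Ccl2 and Ccl7, both ligands of CCR2, differed by -0.45 ± 0.90 and 1.13 ± 1.84. Ccl7 was below the background in both primary libraries and had 55.8, 149 and 27.3 normalised counts in BM monocytes, against 37.6 and 20.03 in primary monocytes. Ccl8 differed by 0.28, the neutrophil attractant Cxcl1 by 0.20 and Ccl22, a ligand of CCR4, by -0.31. Of chemokine receptors 4 of 15 were measured, 3 positive and 1 negative, with a median of 0.31 and 0 called. Ccr7, which guides cells to lymph nodes, had 616, 461 and 920 normalised counts in BM monocytes, against 1428 and 1142 in primary monocytes. All BM libraries lay below both primary libraries, but the difference of -0.998 ± 0.825 did not pass (adjusted p = 0.688 by limma). Ccr9, a receptor for gut homing, differed by 0.23 ± 0.45. The 2 measured dendritic cell markers, Ccr7 and Ccl22, were both negative with a median of -0.65. Itgax, which dendritic cells also carry but which is not on that list, was higher in BM monocytes.

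Adhesion molecules apart from Itgax had small differences. The list held 4 measured genes of 14, 3 positive and 1 negative, with a median of 0.40, and Itgax was its 1 call. Itgb7, the beta chain of the gut homing integrin, had 41907, 36292 and 35281 normalised counts in BM monocytes, against 34707 and 14689 in primary monocytes. The 3 BM libraries were close to each other and above both primary libraries, of which library 1 was near to them, and the difference was 0.74 ± 0.62. Before scaling the Itgb7 counts overlapped, at 42064, 21198 and 34958 in BM monocytes, against 40602 and 27130 in primary monocytes. Cd44, a receptor for hyaluronan, differed by -0.52 ± 1.03, with BM library 1 at 3165 normalised counts and BM libraries 2 and 3 at 406 and 317, against 2108 and 533 in primary monocytes.

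Pro-inflammatory cytokines did not stand out from the rest of the panel. Of 11 listed genes 5 were measured, all 5 positive and 0 called, with a median of 0.37 beside the same 0.37 for all genes, and with total counts 2 of 5 were positive. Il1a and Il1b encode both forms of interleukin 1. Il1a had 87.7, 95.9 and 86.8 normalised counts in BM monocytes, against 101 and 61.2 in primary monocytes, and Il1b had 2969, 2618 and 937 normalised counts in BM monocytes, against 2684 and 931 in primary monocytes. Both genes overlapped between the groups, with differences of 0.19 ± 1.45 and 0.29 ± 0.76. Their 95% intervals were -2.79 to 3.18 and -1.28 to 1.87. Tnf had 15835, 22971 and 25419 normalised counts in BM monocytes, against 15393 and 17176 in primary monocytes, and differed by 0.37 ± 0.72. Il6, a cytokine of the acute phase response, was below the background in all 5 libraries, with 44.8, 56.5 and 27.3 normalised counts in BM monocytes, against 34.2 and 15.2 in primary monocytes. Il23a, a subunit of interleukin 23, had 67.7, 122 and 69.6 normalised counts in BM monocytes, against 66.7 and 33.03 in primary monocytes. Its groups parted by about 1 normalised count at a level near the background.

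Among regulatory genes, Tgfb1 was the only one whose groups did not overlap in normalised counts. Tgfb1, which encodes the cytokine TGF-beta 1, had 116270, 133620 and 114830 normalised counts in BM monocytes, against 94927 and 41087 in primary monocytes. The BM libraries lay close together above both primary libraries only after scaling. Before scaling the counts overlapped, at 116709, 78047 and 113778 in BM monocytes, against 111051 and 75888 in primary monocytes. The difference of 0.96 ± 0.36 (adjusted p = 0.196 by limma) did not pass. It was 1.56 with a call (adjusted p = 0.0219) without primary library 1, and 0.35 without primary library 2. Il10 and its receptor chain Il10ra differed by -0.05 ± 0.57 and 1.39 ± 0.82. The growth factor gene Vegfa had 150, 80.5 and 51.5 normalised counts in BM monocytes, against 485 and 116 in primary monocytes, the most negative difference of the 57 genes at -1.46 ± 1.12. BM library 1 lay between both primary libraries. The list of regulatory cytokines, receptors and growth factors had 4 measured genes of 15, 2 in each direction, a median of 0.45 and 0 calls. Of 8 genes of alternative activation 5 were measured, 3 positive and 2 negative, with a median of 0.05 and 0 calls. Retnla, which encodes RELM-alpha, was below the background in all 3 BM libraries, at 36.9, 53.1 and 30.3 normalised counts, against 46.2 and 245 in primary monocytes. The difference of -1.43 ± 1.27 thus rested on primary library 2. Arg1, the arginine-degrading enzyme, differed by 0.08 ± 1.51 and Stat6, which transmits signals of interleukin 4, by 0.05 ± 0.40.

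Receptors and adaptors of innate sensing gave no call. Of pattern recognition receptors 6 of 15 were measured, 3 in each direction, with a median of 0.11. Tlr1, which pairs with Tlr2 to sense lipopeptides, had 7579, 6020 and 1996 normalised counts in BM monocytes, against 2503 and 1282 in primary monocytes, a difference of 1.33 ± 0.66 (adjusted p = 0.312 by limma) with overlap through BM library 3. Its partner Tlr2 differed by -0.84 ± 0.69, Tlr4 by 0.29, Tlr8 by -0.07 and Nod2, a sensor of muramyl dipeptide, by 0.58. Among adaptors and NF-kappaB subunits 7 of 23 were measured, 5 positive and 2 negative, with a median of 0.59. Nfkb1 had 59165, 68706 and 66985 normalised counts in BM monocytes, against 42726 and 27041 in primary monocytes, so that the groups did not overlap. It differed by 0.93 ± 0.44 (adjusted p = 0.312 by limma). Before scaling the Nfkb1 counts overlapped, at 59386, 40131 and 66371 in BM monocytes, against 49984 and 49944 in primary monocytes. Nfkb2 had 19156, 25823 and 7643 normalised counts in BM monocytes, against 10896 and 2480 in primary monocytes. BM library 3 was below primary library 1, and the difference was 1.58 ± 0.63 (adjusted p = 0.214 by limma), with 2.65 and a call (adjusted p = 0.0219) without primary library 1 and 0.52 without primary library 2. The third subunit gene, Relb, differed by 0.76 ± 0.68. The adaptor genes Traf6 and Card9 differed by 0.59 and -0.02, and Trem1, a receptor that amplifies inflammation, by -0.85 ± 0.92.

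Of 30 transcription factors 6 were measured, 4 positive and 2 negative, with a median of 0.07 and 0 calls. Spi1, which encodes PU.1, a master regulator of myeloid cells, had 92312, 121790 and 85385 normalised counts in BM monocytes, against 80845 and 54516 in primary monocytes. The groups parted by less than the spread within each, with a difference of 0.57 ± 0.39, and it was -0.06 with total counts. Before scaling the Spi1 counts were 92657, 71136 and 84602 in BM monocytes, below both primary libraries at 94577 and 100692. Cebpb, a factor of monocyte survival and Ly6C-low conversion, differed by -0.53 ± 0.64, and Irf4 and Irf5 by -0.04 and 0.09.

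Whether these differences were particular to the marrow was addressed by comparing BM monocytes with donor monocytes from other organs of non-manipulated recipients, where the primary monocytes cancel. Against spleen, which like BM was not digested, 0 of 57 genes passed by limma or edgeR. There were 1 gene (1.75%) under an unadjusted p of 0.05 by limma and 3 (5.26%) by edgeR. The 1 gene by limma was Il10, at 10.43, 10.06 and 10.59 log2 normalised counts in BM, against 10.90, 11.92 and 11.68 in spleen. Its difference was -1.14 ± 0.51 (adjusted p = 0.928 by limma). Itgax was at 12.37, 10.06 and 10.35 log2 normalised counts in BM and at 12.94, 13.33 and 12.34 in spleen, with a difference of -1.94 ± 0.99 (adjusted p = 0.928 by limma). The BM libraries lay below 12.94, but library 1 overlapped with spleen library 3. For H2-Ab1 the difference between BM and spleen was 0.57 ± 1.62, for Cxcl9 1.43 ± 1.79 and for Chil3 0.23 ± 0.57. Set beside primary monocytes, the Itgax difference was 6.03 in BM, 7.97 in spleen, 7.65 in small intestine and 6.68 in liver, and that of H2-Ab1 was 5.06, 4.49, 4.64 and 4.05. That of Chil3 was -1.29, -1.52, -1.25 and -2.84. Against primary monocytes, 1 gene (1.75%) passed in spleen, 5 (8.77%) in small intestine and 7 (12.3%) in liver. These comparisons share the same 2 primary libraries.

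Against the mean of small intestine and liver, both digested with collagenase, 11 of 57 genes (19.3%) passed the limma test, 10 lower in BM (17.5%) and 1 higher. With edgeR 8 (14%) passed. Il1a was at 6.47, 6.60 and 6.46 log2 normalised counts in BM, against 13.05 to 13.52 in small intestine and 13.90 to 15.30 in liver. BM libraries and primary libraries (6.67 and 5.96) thus stood together, far below both digested organs. High Il1a was not limited to digested organs, as spleen library 2 was at 12.69 beside 6.51 and 6.47 in the other spleen libraries, and BM of manipulated recipients was at 12.36, 6.31 and 11.34. The difference to the digested organs was -7.42 ± 1.10 for Il1a and -4.70 ± 0.58 for Il1b, which had the smallest p of the 11. The others that were lower in BM were Vegfa (-5.03), Cd14 (-2.995), Ccr7 (-2.34), the chemokine gene Ccl2 (-2.20), Trem1 (-2.03), Il10 (-1.97), Cd86 (-1.62) and Cebpb (-1.53). Without BM library 2 there were 6 genes past the threshold, and without BM library 3 there were 7. Without BM library 2 the calls of Ccl2, Ccr7, Cebpb and Trem1 were lost, and without BM library 3 those of Ccl2, Cd86, Cebpb and Trem1. Organ and digestion cannot be told apart in this comparison. Itgax differed by -1.14 ± 0.84 and H2-Ab1 by 0.71 ± 1.37, and neither passed.

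**Figure D4:**
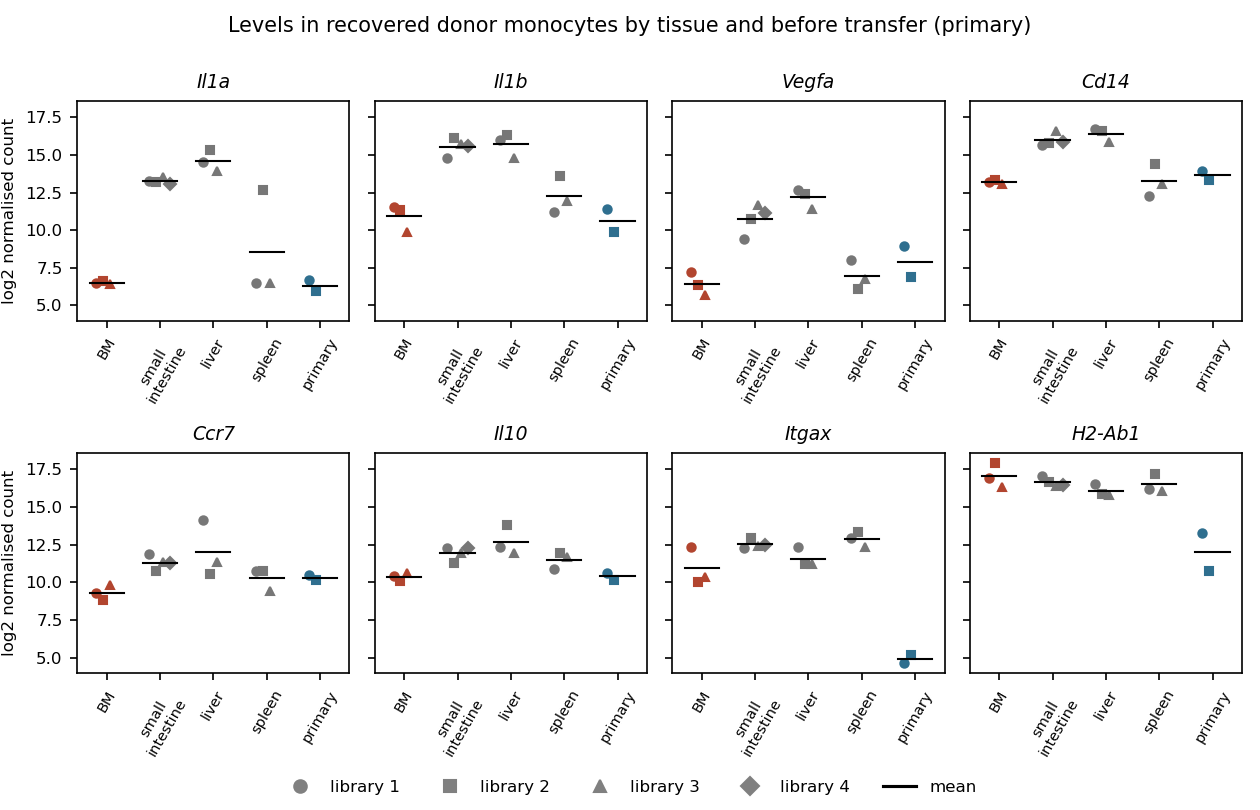
Log2 normalised count (vertical axis) of 8 genes in donor monocytes from BM, small intestine, liver and spleen of non-manipulated recipients and in primary monocytes, each symbol a library and each line a mean (n = 3, 4, 3, 3 and 2). Il1a in BM lay beside primary monocytes and below small intestine and liver, whereas Itgax and H2-Ab1 lay beside the other organs and above primary monocytes.

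Monocytes from BM of manipulated recipients, in which surgery on the gut came before the transfer, are given side by side. Against the same primary libraries 0 of 57 genes passed in manipulated BM, with 2 at an unadjusted p under 0.05 (limma). The Itgax difference there was 2.19 ± 1.11, against 6.03 ± 1.11 in non-manipulated BM. H2-Ab1 was at 8.08, 14.83 and 13.14 log2 normalised counts in manipulated BM, so that library 1 lay far below the others and the difference of 0.00 ± 1.81 (95% interval -3.72 to 3.73), against 5.06 ± 1.81 in non-manipulated BM, is the mean of unlike libraries. Itgax was at 6.34, 8.42 and 6.52 log2 normalised counts in manipulated BM, below each BM library of non-manipulated recipients. The difference between both kinds of recipient was not tested here.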

How the data were processed

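Counts came from nCounter libraries of 100 sorted cells, or of primary monocytes whose cell number is not given, after 16 cycles of pre-amplification. The deposited table holds counts in 15 of 33 libraries and, in 18, a signal, which is the count times a lane constant of the authors (at most 4). Division gave whole numbers for 100% of 1086 values (tolerance 0.002). The constant applied to 4 of the 5 libraries described here, all but BM library 3. It was 2 in BM libraries 1 and 2 and 1.33 in both primary libraries, so the groups share no value of it. The alternatives by lane constant treated all constants alike. A difference between lanes and one between the groups therefore cannot be told apart. The values of the deposited series matrix are a score (table values scaled by 1 factor per lane) and served as an alternative. Exactly how the authors set this factor, and the reason for the constants, are not given in the sources used here. No aligner or genome build is involved, and 72 gene names were matched to RefSeq, 69 by transcript and 3 by symbol. No value was given for 8 panel genes, Gusb and Hprt, and Ccr8 and Cd163 had values in 4 libraries only. The study reports that it left out panel genes with low detection in all samples, without their names in the text used here.

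Counts were scaled by Actb, Gapdh and Rpl19 and tested as log2(normalised count + 1) with limma 3.58.1 (R 4.3.3, two-sided), 1 mean for each of 11 groups over all 33 libraries, which lets groups of 3 and 2 share the spread of the others. P-values were adjusted by Benjamini-Hochberg over 57 genes, threshold 0.05. Genes had to exceed the mean plus 2 SD of the negative controls in 2 libraries, and all 57 did. P-values measure the spread between libraries, which may share animals. Same-numbered BM and primary libraries did not deviate together (correlations over genes of -0.02 and -0.14), whereas BM and spleen did (0.77, 0.76 and 0.44).

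Named genes were those past the threshold, the 10 most positive and the 10 most negative differences, the member of each list with the smallest p, and genes that the study discusses. Other members are named beside their list. A few genes stayed in every fit and count but are not reported here. Members, lists and comparisons were chosen with earlier results of these data known. One list, of H2-Ab1 and Itgax, was chosen by the study on these samples and is no independent evidence. Its median difference was 5.54, with 1 gene called. Alternatives covered scaling, pseudocount, filter, edgeR 4.0.16, DESeq2 1.42.0, the methods' t-test, lane constants, pairing and leaving out libraries.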

Additional observations from a re-analysis of the deposited data

Results flagged for a closer look

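The change of donor monocytes relative to primary monocytes differed between BM and the mean of small intestine and liver for 11 genes, 10 of them lower in BM, by the limma test of that difference, in which the primary libraries cancel. These 10 were Il1a (-7.42), Vegfa (-5.03), Il1b (-4.70), Cd14 (-2.995), Ccr7 (-2.34), Ccl2 (-2.20), Trem1 (-2.03), Il10 (-1.97), Cd86 (-1.62) and Cebpb (-1.53), all as log2 differences. The calls of Il1a, Il1b, Vegfa, Cd14 and Il10 were kept under every alternative run for this comparison. Those of Ccl2, Ccr7, Cd86, Cebpb and Trem1 were each lost under at least 1, and with edgeR 8 genes passed. Small intestine and liver were digested with collagenase and BM was not, and the part of digestion was not tested.

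The chemokine receptor gene Ccr8 is outside the comparison because the BM libraries hold no value for it. It had 71 and 47 counts in primary libraries 1 and 2, above but near the backgrounds of 54.0 and 39.5 counts. The study left out panel genes with low detection in all samples. Whether Ccr8 was one of them is not given in the text used here.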

How the results depend on the processing

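Itgax stayed higher in BM monocytes under all 28 alternatives, with differences between 5.30 and 8.19, and passed the threshold in 27. The exception was the methods' t-test after adjustment (0.232). The 28 alternatives are not independent of each other. Dropping the filter or using the values as deposited could hardly differ from the fit reported, with a median difference of 0.368 in all 3. The fits within lanes with a constant, with the replicate block and without BM library 3 gave the same differences. Against primary monocytes, 1 gene passed in the fit reported. There were 4 with DESeq2 under either kind of size factor (Cxcl9, Cxcl11, H2-Ab1 and Itgax), 3 with these 2 groups alone in the fit, 2 with the manipulated donor added to the primary monocytes, 5 with the methods' t-test unadjusted and 0 with it adjusted. Leaving out 1 library gave 1 to 5 genes, the 5 without primary library 1. Against small intestine and liver the same gave 6 to 13 genes, with 6 without BM library 2 and 7 without BM library 3, and against spleen 0 to 0. In a fit with the replicate number as a block 1 gene passed against primary monocytes, 0 against spleen and 12 against small intestine and liver. Against primary monocytes the block took up BM library 3, which has no primary library of its number. The differences were then those without BM library 3, so this fit cannot show whether pairing matters there. A trend of the variance with the level, added after seeing the data, left 1 gene.

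Of the genes chosen by the naming rule, signs turned for genes that had not passed the test, and the cause was not tested except that scaling moves all genes together. With TMM factors Ccr2 was at -0.00, Tnf at -0.04, Il1b at -0.11, Ccr9 at -0.18, Cxcl1 at -0.20, Il1a at -0.21 and Arg1 at -0.32. With total counts Mrc1 was at -0.02, Spi1 at -0.06, Ccr2 at -0.23, Tnf at -0.26, Il1b at -0.34, Ccr9 at -0.40, Cxcl1 at -0.42, Il1a at -0.43 and Arg1 at -0.55. Without Rpl19 Ccr2 was at -0.14, Tnf at -0.18, Il1b at -0.25, Ccr9 at -0.32, Cxcl1 at -0.34, Il1a at -0.35 and Arg1 at -0.46. With DESeq2 and its own size factors Ccr2 was at -0.11, Tnf at -0.14, Il1b at -0.17, Ccr9 at -0.27, Il1a at -0.29, Cxcl1 at -0.30 and Arg1 at -0.62. Il10 was at 0.29 without Actb, 0.16 without Gapdh and 0.01 in the series matrix. With the background subtracted Arg1 and Il1a were at -0.01. Cd44 was at 0.02 with the manipulated donor added. Within lanes with a constant, and likewise with the replicate block, Cd44 was at 0.10 and Cebpb at 0.14. Without library 2 of both groups Fcgr1 was at -0.10, Il1a at -0.21, Cxcl1 at -0.23, Ccr2 at -0.25, Il10ra at -0.27, Ccr9 at -0.31, Csf1r at -0.33, Siglec1 at -0.53, Il1b at -0.69 and Cx3cr1 at -0.75.

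Leaving out 1 library at a time turned the sign of 25 of the 57 genes, 5 macrophage markers among them. The 12 that the naming rule had chosen ranged over -0.28 to 0.44 for Arg1, -0.27 to 1.08 for Ccr2, -0.38 to 0.84 for Ccr9, -1.56 to 0.47 for Cd44, -1.23 to 0.14 for Cebpb, -0.14 to 2.31 for Csf1r, -1.58 to 3.67 for Cx3cr1, -0.05 to 0.46 for Cxcl1, -0.30 to 0.20 for Il10, -0.07 to 2.84 for Il10ra, -0.16 to 0.55 for Il1a and -0.47 to 1.06 for Il1b. The 2 primary libraries differ widely, and Itgax, Cxcl9, Ccl7, Il6 and Retnla were among the genes near the background in some libraries. A difference that missed the threshold is therefore not shown to be absent.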
